A study of Mus musculus with 6 samples.

Results

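The genes that encode RNA polymerase II, its general transcription factors and the Mediator complex were compared by complex in mouse nephron progenitor cells after maternal food restriction. Genes were taken by a rule on symbol and class: protein-coding genes named Polr2a to Polr2m, Gtf2, Taf or Med followed by a digit, and Tbp. The rule matched 83 genes, of which 82 had normalized values, among 25157 genes with such values. They comprised 13 RNA polymerase II subunits, 12 genes of TFIIA, TFIIB, TFIIE, TFIIF and TFIIH, 3 of the TFII-I family, 17 of TFIID, 30 of Mediator, and 7 further genes whose TAF name is shared by other complexes. The one gene without a normalized value, Gtf2a1l, a TFIIA large subunit best known from germ cells, had raw counts of 0, 0 and 1 in the food-restricted libraries and 0, 1 and 0 in the control libraries.

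RNA came from GFP-positive cells sorted from E18.5 fetal kidneys and labelled as nephron progenitors, the mesenchymal cells that self-renew and form nephron epithelium. The food-restricted group held 3 libraries from embryos of dams kept on reduced food for the whole pregnancy, and the control group held 3 libraries from dams on the control diet. The sample labels give the restricted intake as 30% and the series text as 70%, which was not resolved here. All embryos had CD-1 mothers and Six2 Cre tg/+ fathers, so both diets share a transgene driven by the Six2 promoter, and the labels give this genotype for every library. Neither the number of embryos nor the litter behind a library is given, so the p-values rest on the spread among these 6 libraries, which may be technical. Total counts ranged from 6515127 to 16763479 in the food-restricted libraries and from 10686582 to 12338593 in the controls, and the 82 genes took 0.504% to 0.531% and 0.511% to 0.524% of them.

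RNA polymerase II makes all messenger RNA. Its largest subunits, encoded by Polr2a and Polr2b, form the catalytic cleft, and the long C-terminal tail of the Polr2a protein carries the phosphorylation marks of the transcription cycle. TFIID, built from Tbp and its associated factors (TAFs), recognises the core promoter. TFIIA and TFIIB steady it and bring in the polymerase with TFIIF, while TFIIE recruits TFIIH, whose helicases open the DNA. Mediator links transcription factors bound at enhancers to this machinery, with a head and middle that touch the polymerase, a tail that meets activators, and a detachable kinase module.

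**Figure D1:**
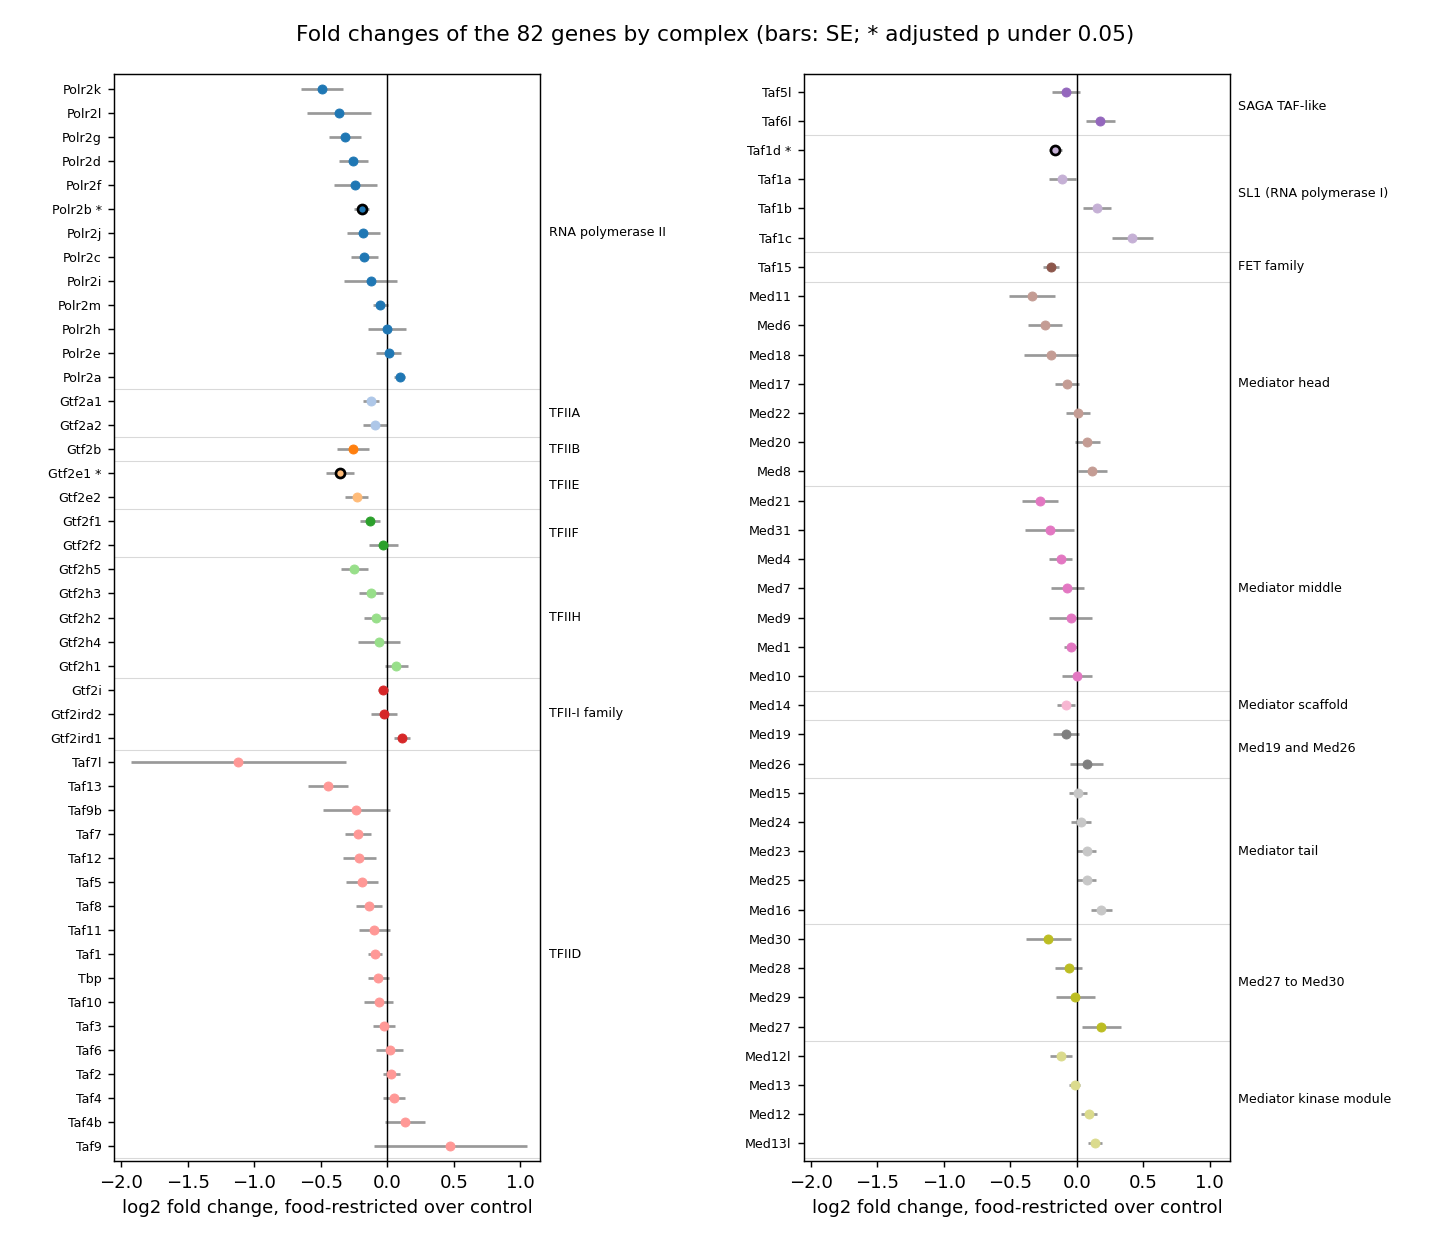
Log2 fold change of each of the 82 genes, food-restricted over control, with its standard error (horizontal bars), grouped by complex and ordered within it. The 3 genes marked with an asterisk and a black ring, Polr2b, Gtf2e1 and Taf1d, passed at an adjusted p under 0.05 and lie left of 0, as do 56 of the 82 points.

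Food restriction was associated with small differences in these genes. With limma on log2 of the normalized count plus 1, 3 of the 82 genes fell in the food-restricted libraries at a Benjamini-Hochberg adjusted p under 0.05: the polymerase subunit Polr2b, the TFIIE subunit Gtf2e1 and Taf1d, a subunit of the SL1 factor of RNA polymerase I. No member was called as higher. Across all genes tested, 4.74% were called, and 2.50% were called as lower. Among the 9471 protein-coding genes with a mean normalized count of at least 100, the range in which 74 of the members lie, 9.86% were called, and 5.43% as lower. The 3 calls are a smaller share of the 82 than either share in both directions and than the better expressed genes called as lower, and a larger share than all genes called as lower. At an unadjusted p under 0.05, 4 members were higher, against 7.48% of all genes and 12.2% of the better expressed protein-coding genes, and 14 were lower, against 8.10% and 14.6%. In the authors' deposited table, 0 members passed as higher and 1, Polr2b, as lower, against 360 and 439 of the 25157 genes. With limma-voom on the counts, 2 members were called as higher, Polr2a and Med13l, and 3 as lower. That fit called 1444 of the 25157 genes in either direction. Sorted tissue is a bulk sample, in which fewer cells of a type and less RNA per cell cannot be told apart.

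Over called and uncalled members together, the direction of the differences was uneven. Log2 fold changes were below 0 for 56 of 82 members and their median was -0.08, between -1.12 for Taf7l and 0.48 for Taf9, the members of lowest count. Over all 25157 genes, 12691 were below 0 and the median was -0.0028. Over the 9471 better expressed protein-coding genes, 4914 were below 0 and the median was -0.0078. For 21 members the diets had no overlapping values, 5 of them higher and 16 lower in the food-restricted group, against 19.7% of all genes and 29.5% of the better expressed protein-coding genes in either direction. By direction, 2386 of the 25157 genes were higher and 2564 lower, and 1300 and 1497 of the 9471 better expressed protein-coding genes. The 5 were Polr2a, Med13l, Taf1b, Taf1c and Taf6l, and the 16 were Polr2b, Polr2d, Polr2g, Polr2k, Gtf2a1, Gtf2b, Gtf2e1, Gtf2e2, Gtf2f1, Gtf2h5, Taf7, Taf7l, Taf13, Taf15, Med6 and Med11. Summed over the 82 genes, normalized counts were 57782, 58698 and 58382 in the food-restricted libraries and 59623, 59578 and 59784 in the control libraries. All 3 food-restricted sums lie under all 3 control sums (mean 58287 ± 465 against 59662 ± 108, SD, n = 3 each). The same holds for the summed better expressed protein-coding genes, with 9457410, 9447600 and 9318380 in the food-restricted libraries and 9502030, 9609770 and 9483200 in the controls. Summed over all genes tested, the diets overlapped, with 11461700, 11205700 and 10984100 in the food-restricted libraries and 11369100, 11644400 and 11449000 in the controls. Sums that separate the diets were thus not limited to the members, and were not found over all genes tested.

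Polr2b encodes the second largest polymerase subunit, at chr5:77310147-77349324 (GRCm38, plus strand, ENSMUSG00000029250). It had normalized counts of 1269, 1258 and 1300.3 in the food-restricted libraries and 1424, 1455 and 1491 in the control libraries. Every food-restricted value lies below every control value, and the spread within each diet is narrow (1276 ± 21.9 against 1457 ± 33.9, SD, n = 3 each). The log2 fold change was -0.19 ± 0.06 (SE; limma, adjusted p = 0.0401), and the authors' deposited table gives -0.19 with an adjusted p of 0.0459. The call ended when any one of the 6 libraries was left out, with adjusted p from 0.0546 without food-restricted replicate 1 to 0.171 without food-restricted replicate 2, and under trimmed-mean (0.0550) and upper-quartile scaling (0.0596).

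Gtf2e1 encodes the large subunit of TFIIE, the factor that brings TFIIH to the promoter (chr16:37509790-37539789, minus strand, ENSMUSG00000022828). Its normalized counts were 257, 247 and 275 in the food-restricted libraries and 334, 311 and 354 in the control libraries. The groups do not overlap, and the log2 fold change was -0.36 ± 0.10 (SE; limma, adjusted p = 0.0305). Its partner Gtf2e2 had 438, 421 and 394 in the food-restricted libraries against 533, 455 and 485 in the control libraries. Those groups do not overlap either, but Gtf2e2 did not pass the test (log2 fold change -0.23 ± 0.09, SE; limma, adjusted p = 0.142). For Gtf2e1 the call held without control replicate 2 (adjusted p = 0.0410) and ended without any other single library, with adjusted p between 0.0550 and 0.167. The authors' deposited table gives an adjusted p of 0.0923.

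Taf1d (chr9:15306214-15316991, plus strand, ENSMUSG00000031939) belongs to SL1, the TBP complex that serves ribosomal RNA genes, and not to TFIID. The food-restricted libraries had 3347, 3021 and 2906 normalized counts, and the control libraries had 3427, 3315 and 3624. Here the groups touch: the highest food-restricted library exceeds the lowest control. Its log2 fold change was -0.16 ± 0.05 (SE; limma, adjusted p = 0.0313), while the authors' deposited table gives an adjusted p of 0.0583. The call held without food-restricted replicate 1 (adjusted p = 0.000981) and without control replicate 2 (0.0411). It ended without food-restricted replicate 2 (0.181), food-restricted replicate 3 (0.321), control replicate 1 (0.121) or control replicate 3 (0.253), and under upper-quartile scaling (0.0515). The annotation places 8 snoRNA genes inside Taf1d on its own strand, and 10.1% of its exon bases lie in exons of other genes there, so its count can hold reads of small RNAs.

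**Figure D2:**
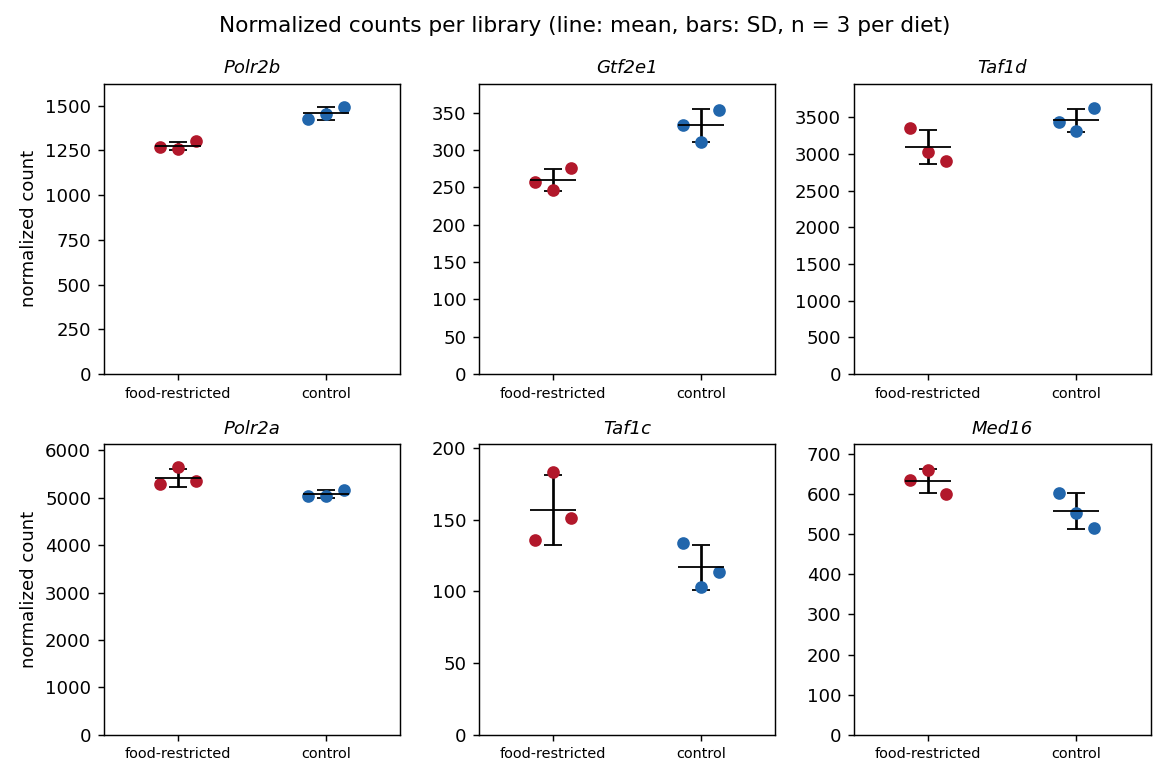
Normalized counts (vertical axes from 0) of 6 genes in each library, with the mean and SD per diet (n = 3 each), food-restricted left and control right. Polr2b and Gtf2e1 separate the diets and Taf1d does not. Polr2a and Taf1c lie higher in the food-restricted libraries without passing the test, and the Med16 groups overlap by a few counts.

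The promoters of the 3 genes that fell, and of Polr2a, whose fold change had the opposite sign, are shown as windows of 120 bases before to 30 bases after the annotated start (RefSeq, GRCm38.p6, read along the gene's strand). Capitals mark matches to a TATA box (TATAAA), a GC box (GGGCGG or its reverse complement CCGCCC) or a CCAAT box (CCAAT or ATTGG).
Polr2b (chr5:77310364-77310513, plus strand): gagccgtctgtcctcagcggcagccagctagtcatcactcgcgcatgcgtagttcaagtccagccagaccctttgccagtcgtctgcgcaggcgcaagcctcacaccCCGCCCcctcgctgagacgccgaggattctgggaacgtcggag
Gtf2e1 (chr16:37539760-37539909, minus strand): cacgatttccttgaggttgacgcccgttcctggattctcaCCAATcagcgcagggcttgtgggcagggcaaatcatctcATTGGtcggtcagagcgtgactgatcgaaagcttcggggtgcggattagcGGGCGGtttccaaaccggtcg
Taf1d (chr9:15306094-15306243, plus strand): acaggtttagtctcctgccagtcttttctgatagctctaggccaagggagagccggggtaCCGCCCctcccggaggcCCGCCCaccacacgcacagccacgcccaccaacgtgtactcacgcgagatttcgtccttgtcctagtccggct
Polr2a (chr11:69758604-69758753, minus strand): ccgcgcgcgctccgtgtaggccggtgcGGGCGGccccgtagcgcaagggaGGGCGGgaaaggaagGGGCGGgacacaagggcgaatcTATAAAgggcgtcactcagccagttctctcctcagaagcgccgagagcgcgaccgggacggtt
In these letters the Polr2b window holds 1 GC box, the Taf1d window 2 GC boxes, and the Gtf2e1 window 2 CCAAT boxes and a GC box past the start. The Polr2a window has a TATA box behind 3 GC boxes. A promoter window was matched for 71 of the 82 genes, 15 of them with more than 1 window, and a gene was counted if any of its windows held the motif on either strand. TATAAA was in 7.04% of these genes (Med28, Polr2a, Taf11, Taf13 and Taf6), against 5.55% of 12949 tested protein-coding genes. The GC box was in 66.2% against 52.6%, and the CCAAT box in 23.9% against 29.7%. The ETS core CCGGAAG was in 22 of the 71 genes (31%), against 12.6% of all, and the YY1 core ATGGCGG was in 8.45% against 3.94%. Of the 4 genes shown, none is among the 22 with CCGGAAG. The 12949 genes were taken at any level, whereas most members have a mean of at least 100, and the shares were not matched for level. Sequence matches are descriptions of the letters and were not tied to any fold change.

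Among the 13 polymerase subunits, 1 fell (Polr2b), 10 had fold changes below 0 and the median was -0.18. Polr2a, the largest subunit, stood apart in direction. It had 5285, 5638 and 5342 normalized counts in the food-restricted libraries and 5025, 5037 and 5170.2 in the control libraries. The groups do not overlap, but the difference missed the threshold after adjustment (log2 fold change 0.09 ± 0.04, SE; limma, adjusted p = 0.195), and with limma-voom it passed (0.0154). The ratio of Polr2a to Polr2b, looked at after both values were known, was 4.16, 4.48 and 4.11 in the food-restricted libraries and 3.53, 3.46 and 3.47 in the control libraries. The ratio does not depend on the library scaling, but it restates the opposite signs of these genes and adds no separate evidence.

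The small subunits made up most of the low end of the polymerase. Polr2k, a zinc-binding subunit shared by the nuclear RNA polymerases, had 88.0, 108 and 104 normalized counts in the food-restricted libraries and 147, 124 and 152 in the control libraries. These groups do not overlap, yet the gene did not pass (log2 fold change -0.49 ± 0.16, SE; limma, adjusted p = 0.0546), and it passed when only genes with a mean of at least 100 were tested (0.0421). Of its transcript 50-mers, 21.6% also occur in transcripts of other genes. Polr2g, part of the stalk that contacts the emerging RNA, had 183, 198 and 191 in the food-restricted libraries against 229, 246 and 239 in the control libraries (-0.32 ± 0.12, SE; limma, adjusted p = 0.127). Polr2d, its partner in the stalk, had 303, 232 and 279 in the food-restricted libraries against 309, 309 and 347 in the control libraries, again without overlap (-0.25 ± 0.11, SE; limma, adjusted p = 0.204). Polr2m, which encodes Gdown1, a regulator of polymerase activity that makes it depend on Mediator, had a log2 fold change of -0.05. Polr2h and Polr2e, subunits of all nuclear polymerases like Polr2k, stood at 0.0001 and 0.01. Of the rest, Polr2c stood at -0.17, Polr2f at -0.24, Polr2i at -0.12, Polr2j at -0.18 and Polr2l at -0.36, with overlapping groups and adjusted p of 0.454 or more.

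**Figure D3:**
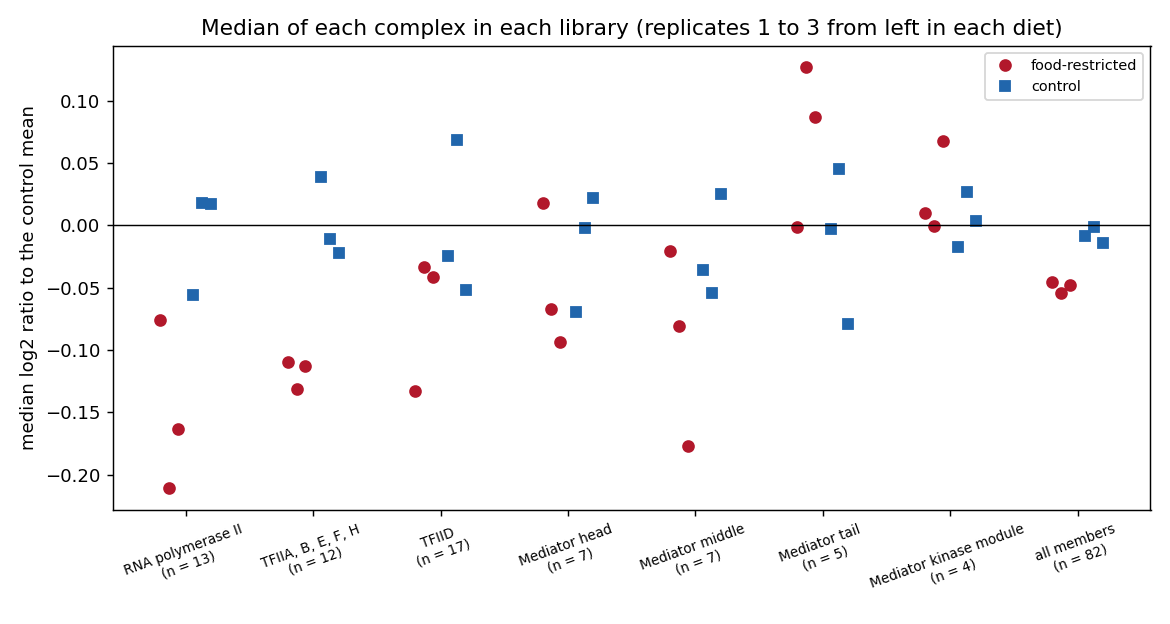
Median over the genes of each complex of the log2 ratio to the gene's control mean, in each library (3 food-restricted circles left, 3 control squares right). The 3 food-restricted medians of TFIIA, B, E, F and H together (-0.11, -0.13 and -0.11) and of the polymerase (-0.08, -0.21 and -0.16) lie under those of the controls, and those of the Mediator kinase module scatter around 0.

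The general factors TFIIA, TFIIB, TFIIE, TFIIF and TFIIH leaned the same way, with 11 of 12 genes below 0, a median of -0.12 and 1 call, Gtf2e1. By library, the median of the 12 log2 ratios to the control mean was -0.11, -0.13 and -0.11 in the food-restricted libraries and 0.04, -0.01 and -0.02 in the controls. Gtf2a1, the TFIIA precursor that is cleaved into its large subunits, had 1320.3, 1317 and 1302 normalized counts in the food-restricted libraries and 1450.5, 1452 and 1379.9 in the control libraries (log2 fold change -0.12 ± 0.06, SE; limma, adjusted p = 0.302). Gtf2b, the bridge between TBP and the polymerase, had 234, 182 and 195 in the food-restricted libraries against 252, 241 and 235 in the control libraries (-0.26 ± 0.12, SE; limma, adjusted p = 0.260). Its highest food-restricted value is barely under its lowest control value. Gtf2f1, the large TFIIF subunit that escorts the polymerase, had 695, 682 and 677 in the food-restricted libraries against 751, 776 and 722 in the control libraries (-0.13 ± 0.07, SE; limma, adjusted p = 0.407). In Gtf2f1 the groups are apart, whereas in its partner Gtf2f2 (-0.03) and in the small TFIIA subunit Gtf2a2 (-0.09) they overlap.

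Within TFIIH the 5 member genes spanned -0.25 for Gtf2h5, the smallest subunit, to 0.07 for Gtf2h1, a core subunit, and none passed. Gtf2h5 had 333, 258 and 283 normalized counts in the food-restricted libraries and 343, 346 and 343 in the control libraries, a wide spread on one side and a tight one on the other (limma, adjusted p = 0.194). Of the settings tried, it was called as lower only without food-restricted replicate 1, the highest of its food-restricted values. Gtf2h2, Gtf2h3 and Gtf2h4, also of the core, stood at -0.08, -0.12 and -0.06. TFIIH subunits named otherwise, Ercc2, Ercc3, Cdk7, Ccnh and Mnat1, gave 1 call. Ccnh, the cyclin of the TFIIH kinase that phosphorylates the polymerase tail, fell to 320.4, 281 and 262 normalized counts in the food-restricted libraries, against 350.4, 362 and 424 in the controls (log2 fold change -0.39 ± 0.10, SE; limma, adjusted p = 0.0107). The other 4 were above 0, among them its kinase Cdk7 at 0.11 (limma, adjusted p = 0.409).

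In TFIID 12 of 17 genes were below 0, the median was -0.09 and none passed. That median was -0.04 without control replicate 2 and -0.05 without food-restricted replicate 3. Tbp, the TATA-binding subunit, had 574, 616 and 547 normalized counts in the food-restricted libraries and 599, 623 and 593 in the control libraries. The groups overlap (log2 fold change -0.06 ± 0.08, SE; limma, adjusted p = 0.776). Taf1, the largest subunit and scaffold, stood at -0.09 and Taf4 at 0.05. The lowest among the better expressed was Taf13, a histone-fold partner of Taf11, with 116, 115 and 97.7 normalized counts in the food-restricted libraries against 162, 131 and 155 in the control libraries (-0.44 ± 0.15, SE; limma, adjusted p = 0.0825). Its groups do not overlap, whereas those of Taf11 do (-0.10). Taf7, which holds Taf1 in check, had 308, 354 and 316 in the food-restricted libraries against 369.8, 397 and 369.9 in the control libraries (-0.22 ± 0.10, SE; limma, adjusted p = 0.235). Taf2, Taf3 and Taf6 stood at 0.03, -0.02 and 0.02, while Taf5, Taf8 and Taf12 stood at -0.19, -0.14 and -0.21, all with overlapping groups. Taf10, also a subunit of the SAGA coactivator, stood at -0.06, with 45.9% of its exon bases opposite exons of Ilk. The sources used here do not say whether counting used strand, so such genes are uncertain. Polr2i, Taf6, Med31, Med20 and Med7 have 21.2% to 26.8% of their exon bases opposite another gene and carry the same limit. So do Tbp, Polr2c, Med12l, Taf1c, Taf11, Polr2j and Med21, with 15.5% to 19%, and some further members have smaller shares.

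Of the paralogous TAFs of TFIID, Taf4b had a mean normalized count of 135, and Taf9b (47.7) and Taf7l (2.2) were weakly counted. Taf4b, known for its role in germ cells, had a log2 fold change of 0.14 (limma, adjusted p = 0.743), and Taf9b, the paralog of Taf9, -0.23 (0.737). Taf7l, the testis counterpart of Taf7, had raw counts of 1, 1 and 1 in the food-restricted libraries and 3, 4 and 3 in the controls, too few for a fold to carry weight. Raw counts of Taf9 were 4, 15 and 9 in the food-restricted libraries and 5, 5 and 6 in the control libraries. Taf9 shares 68.6% of its transcript 50-mers with other genes, and 73.8% of its exon bases lie in exons of Ak6, so its low count says little about its level.

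TAF genes outside TFIID differed in sign. Of SL1, Taf1d fell, whereas Taf1c had 136, 183 and 151 normalized counts in the food-restricted libraries and 134, 103 and 114 in the control libraries, which only just separates them. Taf1c had the highest fold change among the members with a mean of at least 100 and did not pass (0.42 ± 0.15, SE; limma, adjusted p = 0.109). For Taf1c 16.7% of the exon bases lie opposite exons of Dnaaf1. Taf1b, another SL1 subunit, had 345, 309 and 313 in the food-restricted libraries against 302, 282 and 286 in the control libraries (0.15 ± 0.10, SE; limma, adjusted p = 0.523). Taf1a, the remaining SL1 subunit, stood at -0.11. Taf6l, a TAF-like subunit of SAGA, stood at 0.18, with higher values in all 3 food-restricted libraries, and Taf5l, its partner there, at -0.08. Taf15, an RNA-binding protein of the FET family found with TFIID, had 1141, 1333 and 1139 in the food-restricted libraries against 1393, 1366 and 1366 in the control libraries. Its difference just missed the threshold (-0.20 ± 0.06, SE; limma, adjusted p = 0.0533) and passed with a pseudocount of 5 (0.0455), among genes with a mean of at least 100 (0.0365) and without food-restricted replicate 2 (0.0144). The TFII-I family, DNA-binding proteins that share only their name with the general factors, showed little difference: Gtf2i stood at -0.03, Gtf2ird1 at 0.11 and Gtf2ird2 at -0.02.

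Mediator as a whole lay close to 0. Of its 30 genes 17 were below 0 and 13 above, the median was -0.03 and none passed, and its summed normalized counts overlapped between diets (20384, 20651 and 20633 in the food-restricted libraries, 20187, 20616 and 20615 in the controls). The modules differed in direction by small amounts. Head and middle had medians of -0.07 each, and the scaffold Med14, which joins the modules, stood at -0.08 (limma, adjusted p = 0.627). The head median was 0.0075 when only genes with a mean of at least 100 were kept, and the middle median was -0.17 without food-restricted replicate 1, -0.11 without control replicate 1 and -0.04 without food-restricted replicate 3. All 5 tail genes were above 0, with a median of 0.07, but none passed. That median was 0.0035 without food-restricted replicate 2 and 0.04 without control replicate 1 or control replicate 3. The medians of the Mediator modules thus moved with single libraries or with a filter on low counts.

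In the head, Med17, the central subunit, stood at -0.07 and Med11 was lowest with 81.0, 90.1 and 87.2 normalized counts in the food-restricted libraries against 112, 104 and 110.4 in the control libraries. The Med11 groups do not overlap (log2 fold change -0.34 ± 0.17, SE; limma, adjusted p = 0.330). Med6, which contacts the polymerase side of the head, had 185, 186 and 148 in the food-restricted libraries against 193, 205 and 213 in the control libraries, also apart (-0.24 ± 0.13, SE; limma, adjusted p = 0.368). Med8, Med18, Med20 and Med22 stood between -0.19 and 0.12 with overlapping groups. In the middle, Med21, partner of Med7 in the hinge, had 197, 134 and 181 in the food-restricted libraries against 186, 195 and 233 in the control libraries (-0.27 ± 0.14, SE; limma, adjusted p = 0.311). Med1, the docking subunit for nuclear receptors, stood at -0.04, Med4 at -0.12, Med7 at -0.07, Med9 at -0.05 and Med31 at -0.20, all with overlapping groups. Med10, at 0.0001, has 92.8% of its exon bases opposite exons of another annotated gene, Gm26819, and cannot be read alone for the reason given for Taf10. Med26, which exchanges with the kinase module and recruits elongation factors, stood at 0.07 and Med19 at -0.08.

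In the tail, Med16 had 636, 661 and 600.0 normalized counts in the food-restricted libraries and 603, 554 and 515 in the control libraries. One control library exceeds the lowest food-restricted one, and the gene did not pass (log2 fold change 0.18 ± 0.08, SE; limma, adjusted p = 0.221). Med23, a contact of the transcription factor Elk1, stood at 0.07 and Med15, a contact of several activators, at 0.01. Med24 and Med25 stood at 0.03 and 0.08. Med27, at the base of the tail, stood at 0.18 and Med30 at -0.21, and neither passed (limma, adjusted p = 0.612 and 0.597). Med28 and Med29 stood at -0.06 and -0.01.

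The kinase module restrains Mediator when bound and is represented by its scaffold genes. Med13l had 1933, 2036 and 1992 normalized counts in the food-restricted libraries and 1773, 1865 and 1773 in the control libraries. Groups do not overlap, and the log2 fold change of 0.14 ± 0.05 (SE) missed the threshold (limma, adjusted p = 0.132) but passed with limma-voom (0.0347). Its paralog Med13 stood at -0.02, Med12, which activates the module's kinase, at 0.09, and its paralog Med12l at -0.12. The kinase itself, Cdk8, is not among the 82 genes and rose to 1660.1, 1684 and 1618 in the food-restricted libraries, against 1414.5, 1393 and 1437 in the controls (0.23 ± 0.06, SE; limma, adjusted p = 0.00702). Of the module's other genes outside the symbols, Cdk19 and Ccnc, neither passed.

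Related gene lists gave few calls. None of 5 RNA polymerase II assembly factors, 4 TBP relatives and regulators or 18 subunits of RNA polymerases I and III passed in either direction, and their medians were 0.09, -0.06 and -0.04. Of 10 genes of the RNA polymerase III factors, 1 fell and 1 rose. Gtf3c6, a TFIIIC subunit, fell (log2 fold change -0.34 ± 0.08, SE; limma, adjusted p = 0.00239), and Brf1, the TFIIB relative of the polymerase III factor TFIIIB, rose (0.29 ± 0.06, SE; limma, adjusted p = 0.00202).

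**Figure D4:**
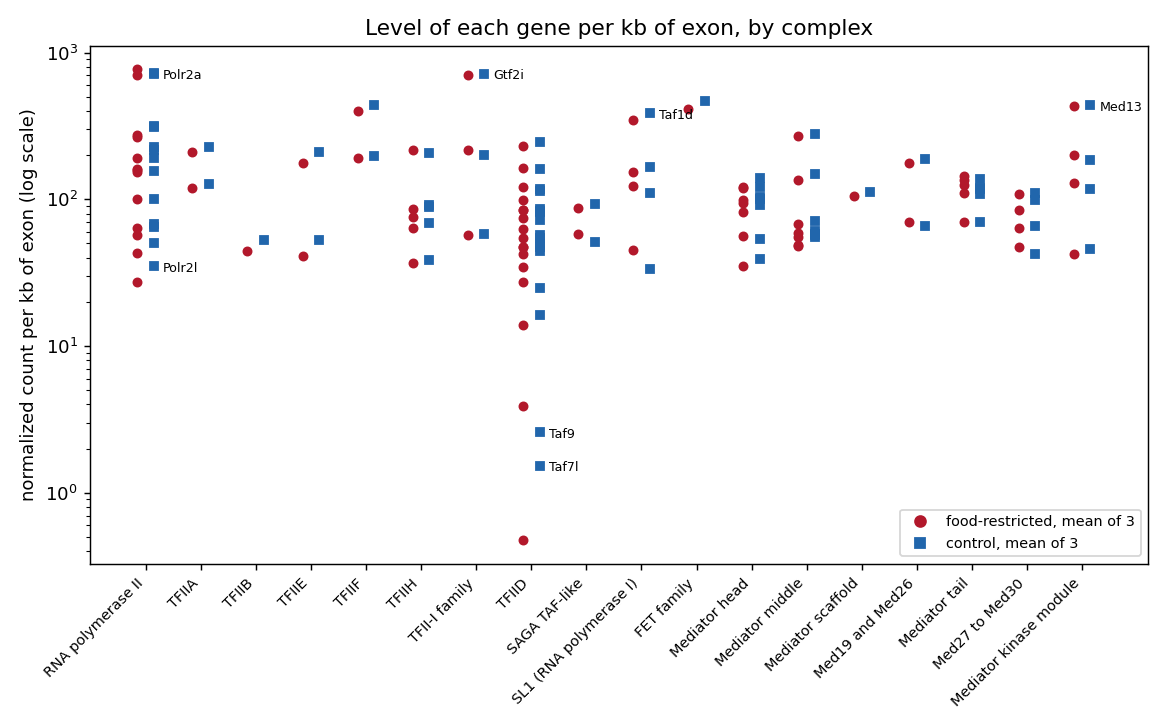
Mean normalized count per kb of exon (log scale) of each gene in food-restricted (circles, left) and control (squares, right) libraries, by complex. Polr2a, Polr2m and Gtf2i stand between 701 and 767 in both diets, and Taf9 and Taf7l lie far below all other genes.

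Subunits of one complex were counted at unlike levels per length. Per kb of annotated exon, Polr2a stood at 767 ± 26.8 normalized counts in the food-restricted libraries and 718 ± 11.4 in the controls (SD, n = 3 each). Polr2m stood at 701 ± 13.3 and 726 ± 13.6 and Gtf2i at 701 ± 40.0 and 717 ± 10.05 in the same order, so these 3 do not differ beyond their spread in the controls. Below them came Taf15 (413 and 471), Med13 (433 and 438) and Gtf2f1 (399 and 437). Polr2b stood at 273 ± 4.69 in the food-restricted libraries and 312 ± 7.26 in the controls, well under Polr2a in each. The lowest polymerase subunit was Polr2l, another small shared one, at 27.3 ± 5.92 and 34.9 ± 3.84. Of the Polr2l transcript 50-mers, 20.9% also occur in transcripts of other genes. Taf7l, at 0.476 and 1.52, was lowest of all members. Exon length here is the union over annotated transcripts, so a gene with many rarely used exons reads low.

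**Figure D5:**
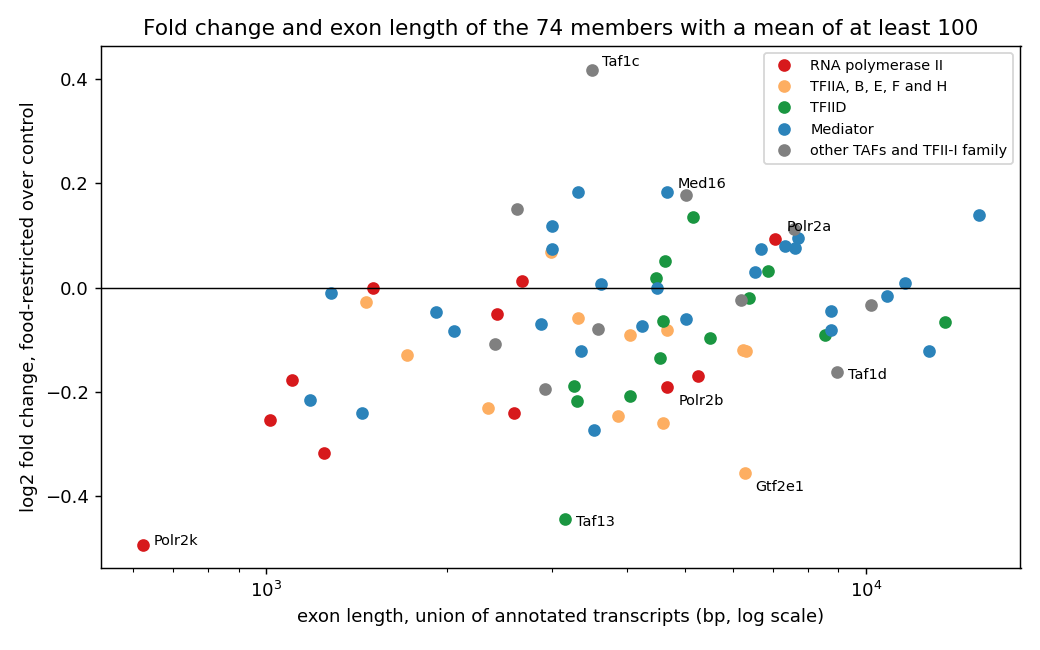
Log2 fold change, food-restricted over control, against exon length (bp, log scale) for the 74 members with a mean normalized count of at least 100, coloured by complex. Nearly all genes under 2 kb, most of them polymerase and Mediator subunits, lie below 0. Genes above 8 kb lie nearer to it, with 8 of the 10 below.

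Fold changes varied with gene length. Across members, Spearman's rho between fold change and exon length was 0.392 over 82 genes and 0.329 over the 74 better expressed ones. Over 9463 protein-coding genes with a mean of at least 100 it was 0.248. These correlations are across genes that share the same 6 libraries and are given as a description. Of the 16 members under 2 kb, 15 were below 0 with a median of -0.20, where the 753 protein-coding genes of that length with a mean of at least 100 had a median of -0.13. From 2 to 4 kb the median was -0.08 over 26 members (-0.04 in the background), from 4 to 8 kb it was -0.02 over 30 (0.0026), and above 8 kb -0.05 over 10 (0.03). In the same order, 17, 16 and 8 of these members were below 0. Members of any level entered these bins, unlike the background genes, so the medians are not matched for level. Polr2b, Gtf2e1 and Taf1d have exon lengths of 4667, 6285 and 8949 bp. With the trend on length removed, their adjusted p was 0.0331, 0.0171 and 0.00788 (limma). Polr2k, at -0.49, became -0.44 with that trend removed. In that fit the median over all members was -0.0773 (-0.0767 before). The polymerase median was -0.19 (-0.18 before) and the TFIID median -0.12 (-0.09 before). The medians of the Mediator tail and kinase module were 0.04 and 0.0054 (0.07 and 0.04 before). The part of length in the differences was not tested.

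Markers of other cells differed between the diets as well. Nephron progenitor markers were present in every library at summed levels of 2547 to 2728 CPM (counts scaled to the library total) in the food-restricted libraries and 2719 to 2763 CPM in the controls, and Six2 itself did not pass. Of these 8 markers 2, Meox1 and Itga8, fell. All 6 proximal tubule markers fell (summed 290.1 to 300.04 CPM in the food-restricted libraries, 517 to 538 CPM in the controls). All 4 macrophage markers rose (29.7 to 36.5 CPM, 18.4 to 20.1 CPM), as did 4 of 6 stromal markers (208 to 247 CPM, 172 to 179 CPM). Proliferation genes fell for 4 of 5 (1579 to 1610.4 CPM, 1954 to 1993 CPM). Of the other marker lists, 1 of 5 commitment markers rose, 1 of 4 podocyte and 1 of 4 ureteric bud markers fell, and none of 4 endothelial and 4 erythroid markers passed. No marker was at 0 in all libraries. The part of these differences in the fold changes of the transcription machinery was not tested.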

How the data were processed

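Gene expression was measured by RNA-seq in 6 libraries, 3 per diet. RNA was taken from sorted GFP-positive cells with TRIzol, and libraries were made with the SMARTer Stranded Total RNA-Seq v2 Pico Input kit, which keeps non-coding RNA, per the labels' protocols. Per the submitters' processing notes, DESeq2 1.22.1, HTSeq 0.6.0, TopHat2 2.1.1, cutadapt 1.18 and bcl2fastq 2.18.0.12 were used, on build GRCm38. Strand setting and annotation are not given in the sources used here.

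Deposited was a table of 52386 genes with the authors' whole-number read counts and, for the 25157 genes with a summed count of at least 10, counts divided by 1 size factor per library (0.568, 1.27 and 1.53 in the food-restricted libraries, 1.08, 0.934 and 0.933 in the controls). It also holds the authors' DESeq2 log2 fold changes, p-values and adjusted p-values. Some cells carry a mark for a missing value. Of the count models, only limma-voom was run.

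The test was limma 3.58.1 (R 4.3.3) on log2(normalized count + 1), a scale that understates the change of low genes. Diet was the only term, with a mean-variance trend and two-sided p-values adjusted by Benjamini-Hochberg over all 25157 genes. A gene was called at an adjusted p under 0.05. Replicate libraries differed by more than counting noise (mean chi-square per gene 3.25 to 14.7), so none was a copy of another. Separate preparations of the same cells or RNA could also differ by that much, so technical replicates cannot be told from biological ones here. Exon lengths, overlaps and 50-mers came from GENCODE M21 (GRCm38) and promoters from RefSeq (GRCm38.p6). The annotation gave a length for 99.7% of tested genes.

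The genes and lists were chosen with earlier results of these data known. Named members are those called, the 5 highest and 5 lowest among members with a mean of at least 100, the member of smallest p in each complex, and a fixed set. Other members are named to complete their complex, and the Polr2a to Polr2b ratio was chosen after values were seen. Alternatives tried were limma-voom, other scalings, pseudocounts of 0.5 and 5, filters at a mean of 10 and 100, removal of a trend on length, a replicate block, and leaving out each library.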

Additional observations from a re-analysis of the deposited data

How the results depend on the processing

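Of 15 alternative settings, 2 members were called as higher with limma-voom (Polr2a and Med13l) and none elsewhere. Members called as lower were 1 with upper-quartile scaling (Gtf2e1), 5 among genes with a mean of at least 100 (with Polr2k and Taf15 added) and 0 to 2 when 1 library was left out. All genes called were 1444 with limma-voom, 1211 with upper-quartile scaling and 1156 among the 10060 genes with a mean of at least 100. With 1 library left out, all genes called ranged from 564 to 1357. The median log2 fold change of the members stayed below 0 in every setting: -0.0657 with limma-voom, -0.0686 with trimmed-mean scaling, -0.0643 with upper-quartile scaling, -0.0647 among genes with a mean of at least 100, and -0.0970 to -0.0543 with 1 library left out. Medians of complexes also moved. Together TFIIA, TFIIB, TFIIE, TFIIF and TFIIH had -0.0962 with limma-voom, the Mediator head 0.00752 and all Mediator genes -0.0110 among genes with a mean of at least 100, and the kinase module 0.00536 with the trend on length removed. With 1 library left out, the ranges were -0.152 to -0.117 for those 5 factors together, -0.148 to -0.0289 for TFIIH, -0.0388 to 0.0312 for the TFII-I family, -0.0368 to -0.00766 for Mediator, -0.173 to -0.0443 for its middle, 0.00352 to 0.0742 for its tail and 0.00465 to 0.0586 for its kinase module. A scaling factor applies to every gene of a library. Over all genes tested, the median went from -0.0028 to 0.0050 with trimmed-mean and 0.0089 with upper-quartile scaling. The cause of the other shifts was not tested, apart from fewer genes under the filter and fewer libraries.

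Samples with the same replicate number did not deviate together (correlations -0.111, 0.0262 and -0.0718), so the numbers were not taken to pair the libraries. With a replicate block, 1 member was called as lower, Gtf2e1, and 980 genes were called in all.

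Uncalled genes near 0 changed sign. Gtf2i was 0.00280 with limma-voom and Med15 -0.0276 with the trend on length removed. With 1 library left out the ranges were: Gtf2h1 -0.0364 to 0.185, Gtf2i -0.0671 to 0.013, Med13 -0.0457 to 0.00106, Med15 -0.0237 to 0.0514 and Taf10 -0.109 to 0.00635.

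The planned edgeR and DESeq2 fits were not run. At this depth no difference was detectable for Taf7l, Taf9 or Gtf2a1l.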
